A study of Mus musculus with 30 samples.

Results

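Kallikreins are serine proteases, and 6 genes of the kallikrein and angiotensin systems were followed in the ageing mouse kidney: the kallikreins Klk1, Klk1b5 and Klk1b26, and the angiotensin genes Agt, Ace and Agtr1a. The members were taken by name, as every probe set that array annotation gives to 1 of these symbols. Of the 6 genes, 4 had a probe set, out of 6137 genes named by 1 symbol on the arrays, and they had 8 probe sets of 13179. Agt and Agtr1a were not analysed here.

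Tissue kallikrein, the product of Klk1, is made in the connecting tubule of the kidney and cleaves kininogen to release kinins, peptides that widen vessels and increase sodium excretion. In the angiotensin system renin cuts angiotensinogen (Agt), angiotensin-converting enzyme (Ace) makes angiotensin II, and the type 1 receptor (Agtr1a) carries much of its effect on vessels and tubules. The systems meet in the converting enzyme, which also breaks down kinins. The mouse has many close Klk1 relatives, the Klk1b genes, best known from the salivary gland, and Klk1b26 encodes an enzyme that can activate prorenin.

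Total RNA of kidneys of C57BL/6 mice, an inbred strain, was hybridised to 1-colour short-oligonucleotide arrays. The groups were young controls on control feed at 5 months, old controls on control feed at 30 months, and calorie-restricted mice at 30 months, with 5 animals in each. Each animal was measured on 2 array types, here letters A and B, which gave 30 samples. The labels give neither the sex nor the degree or start of the restriction, and nothing in them says that numbers 1 to 5 stand for different mice. Each number is written as an animal, and p-values measure the spread between these samples, which may be technical. The arrays carried 6584 and 6595 probe sets, and between 33.5% and 37.5% of the values of an A array and between 23.9% and 27.6% of those of a B array lay above a background floor of 1103 and 1815 intensity units. The proximal tubule transporter Slc34a1 (l33878_s_at) read 64860 ± 2872 (SD, n = 5) in young controls, far above the floor.

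The 3 kallikreins are close relatives, and the sequences around their starts are printed to show how alike they are. The windows run from 250 bases before to 50 bases after each start in RefSeq (GRCm38.p6), on the plus strand of chromosome 7: chr7:44225110-44225409 for Klk1, chr7:44216224-44216523 for Klk1b5 and chr7:44012428-44012727 for Klk1b26. Capitals mark the longest run of letters found in all 3.
Klk1: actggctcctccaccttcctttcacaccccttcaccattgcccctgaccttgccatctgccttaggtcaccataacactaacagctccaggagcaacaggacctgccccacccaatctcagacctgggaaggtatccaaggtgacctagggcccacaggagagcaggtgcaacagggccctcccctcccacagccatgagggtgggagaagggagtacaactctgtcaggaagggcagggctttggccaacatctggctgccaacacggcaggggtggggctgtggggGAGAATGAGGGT
Klk1b5: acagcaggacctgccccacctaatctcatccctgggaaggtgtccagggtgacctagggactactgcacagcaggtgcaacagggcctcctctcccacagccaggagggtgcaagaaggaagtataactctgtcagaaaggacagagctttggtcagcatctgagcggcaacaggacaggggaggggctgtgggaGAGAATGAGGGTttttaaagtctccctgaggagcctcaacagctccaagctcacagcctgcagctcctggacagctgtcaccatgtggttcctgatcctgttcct
Klk1b26: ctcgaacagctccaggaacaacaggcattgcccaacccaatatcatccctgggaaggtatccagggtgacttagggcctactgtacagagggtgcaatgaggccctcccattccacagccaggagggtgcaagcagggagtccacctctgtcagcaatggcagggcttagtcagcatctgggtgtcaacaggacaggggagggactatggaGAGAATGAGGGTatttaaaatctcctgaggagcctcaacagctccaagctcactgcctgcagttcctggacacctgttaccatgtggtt
The marked 12 letters, GAGAATGAGGGT, stood at bases 289 to 300 of the Klk1 window, 196 to 207 of the Klk1b5 window and 212 to 223 of the Klk1b26 window. On either strand, they occurred in 10 of 32851 windows, or 0.0304%, and in 9 of the 14 windows of Klk1 and the Klk1b genes. Both counts include the 3 printed windows, which hold these letters by the way they were chosen. The run TTTAAA was in 13.2% of all windows, in 13 of those 14 and in 2 of the 3 printed here. In the Klk1b5 and Klk1b26 windows it stands just after the marked letters. The Klk1 window ends with those letters, so it does not cover that place and shows no lack of the run. TGTTCT was in 19.0% of all windows, in 2 of the 14 and in 0 of the 3. In the best local alignment Klk1 and Klk1b5 had 85.6% identical letters over 208 columns, Klk1 and Klk1b26 had 81.0% over 221, and Klk1b5 and Klk1b26 had 85.0% over 286. No other protein-coding gene lay between Klk1b5 and Klk1, and 7 lay between Klk1b26 and Klk1. A match of letters describes the sequence and shows no bound factor.

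The bright probe sets of Klk1, Klk1b5 and Klk1b26 all end in f_at, the array maker's mark for probes shared within a gene family, so RNA of a relative cannot be told apart from that of the named gene. Of the 8 member probe sets, 5 (of 3 genes) passed the filter, which asked for values above the floor on at least 5 of 15 arrays. Of these 5, the i probe sets of Klk1b5 and Klk1b26 reached it through the young arrays, whose values are not read for them. The others, for Ace and for another Klk1b26 record, lay below the floor on 15 of 15.

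Klk1 was lower in old than in young kidneys. On its probe set d10464_f_at (letter A) the young controls, in order of number, had scaled intensities of 26209, 42585, 46402, 50900 and 54364. The old controls had 18631, 17044, 24158, 23002 and 24326. All 5 old controls lay below the lowest young control, with number 1 of the young group well under its 4 fellows. The means were 44092 ± 10946 (SD, n = 5) in young and 21432 ± 3368 (n = 5) in old controls. Klk1 thus fell by 1.01 ± 0.19 on the log2 scale (SE), which is 2.02-fold, with adjusted p = 0.00290 in limma and a 95% interval of -1.42 to -0.61. The exact two-sided permutation test gave p = 0.00794, the smallest that 5 animals against 5 can give. Both tests leave out a pairing of young and old controls by number, which was taken from correlations and is not given in the labels. The limma call held with the number as a replicate block.

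With age, 1 of 1 readable member probe sets passed the threshold, against 2.17% of all 4518 tested probe sets that passed as lower and 5.16% in either direction. Without the letter B class whose young values stand exchanged, described with Klk1b5, 3.95% of 4433 probe sets passed in either direction, and 150 passed when the adjustment was made without that class. The young and old groups did not overlap for Klk1, as for 3.03% of all probe sets in that direction. The median log2 change of all tested probe sets was -0.04. The members were chosen with earlier results of these data known, so these shares are background and no test of the members. In tissue RNA, fewer kallikrein-making cells and less Klk1 RNA per cell cannot be told apart.

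The calorie-restricted mice of 30 months had Klk1 intensities of 34195, 29933, 28521, 40199 and 41164, with a mean of 34802 ± 5769 (SD, n = 5). All 5 lay above the highest old control. The difference from old controls was 0.70 ± 0.19 on the log2 scale, or 1.62-fold, with an interval of 0.29 to 1.11. The adjusted p in limma was 0.0703 and did not pass the threshold of 0.05, while the exact permutation test of this probe set alone gave p = 0.00794. Against young controls the difference was -0.31 ± 0.19 (limma adjusted p = 0.428, exact permutation p = 0.175), with an interval of -0.72 to 0.09. The restricted and young groups overlapped, although 4 of 5 young controls lay above every restricted animal. The levels of Klk1 thus ran from old controls over restricted animals to young controls, and the last pair did not differ beyond their spread.

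Klk1b5, a kallikrein encoded next to Klk1, read higher in each restricted animal than in any old control, but the difference was short of the threshold. On Y00500_f_at (letter B) the old controls read 33498, 31825, 30299, 37625 and 39459, and the restricted animals 43362, 41439, 44511, 70795 and 57930. The groups did not overlap, and numbers 4 and 5 were the highest of each group. The means were 34541 ± 3878 and 51607 ± 12549 (SD, n = 5), and the log2 difference was 0.55 ± 0.15 (SE), or 1.47-fold, with an interval of 0.24 to 0.87. The adjusted p in limma was 0.0597, short of the threshold, and the exact permutation p was 0.00794. The second probe set of the same target, Y00500_i_at, was below 0 in all 10 old animals, with means of -527 ± 158 in old controls and -518 ± 186 in restricted animals.

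No age change is read from Klk1b5. In young controls the values of its probe sets stood the other way round: Y00500_f_at read -471 ± 120 (SD, n = 5) and Y00500_i_at read 66438 ± 14653. The same holds for Klk1b26, where x63327_f_at read 1754 ± 706 and x63327_i_at 28227 ± 8368 in young controls, against 10033 ± 4192 and 1088 ± 957 in old controls. Both targets are of the letter B kind with several suffixed probe sets, for which the young values stand exchanged, and these young values are given only to show it. Y00500_i_at was above the floor on the 5 young arrays alone.

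Klk1b26, a kallikrein that can activate prorenin, did not pass the threshold with the diet. On x63327_f_at the old controls read 9120, 12971, 15634, 6651 and 5788, and the restricted animals 9202, 8821, 6705, 12438 and 16770. The groups overlapped over most of their range. The means were 10033 ± 4192 and 10787 ± 3923 (SD, n = 5), and the log2 difference of 0.13 ± 0.28 (limma adjusted p = 0.868, exact permutation p = 0.683) had an interval of -0.45 to 0.72, so a change of the size seen for Klk1 is within it.

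Klk1b26 differed in direction between animal numbers. In numbers 1 to 3 the old controls had the higher mean, 12575 against 8243, a log2 difference of -0.59. In numbers 4 and 5 the restricted animals did, 14604 against 6220, a difference of 1.22. Neither passed the threshold alone (limma adjusted p = 0.195 and 0.114), and what the number sets are is not given in the labels. Without restricted animal 5 the difference over the remaining animals was -0.043, and without old control 5 it was -0.038. For Klk1 the same sets gave 0.64 and 0.78 with the diet, and for Klk1b5 0.44 and 0.73. The age change of Klk1 was -0.92 in numbers 1 to 3, where its adjusted p was 0.0731, and -1.15 in numbers 4 and 5, where it was 0.0124. Klk1 was higher in numbers 4 and 5 than in 1 to 3 in every group, with means of 52632 and 38399 in young controls, 23664 and 19944 in old controls, and 40681 and 30883 in restricted animals. The part of the number set in these results was not tested beyond those values and a fit with the set as a term.

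**Figure D1:**
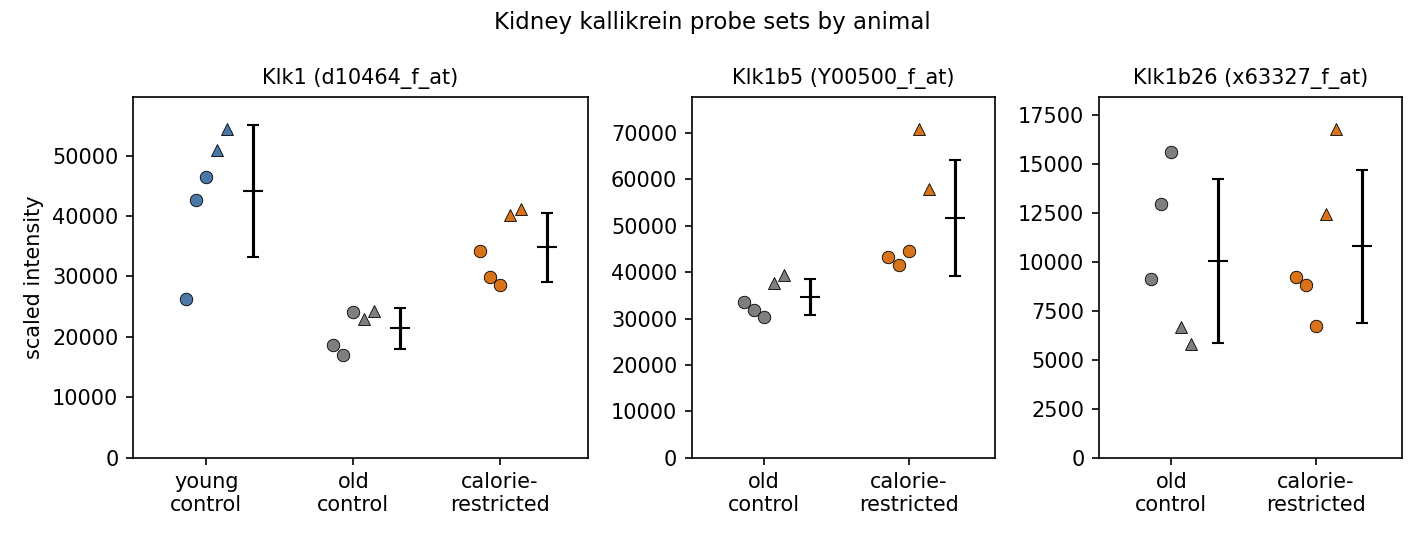
Scaled intensity of 3 kallikrein probe sets by animal. Circles are animal numbers 1 to 3, triangles numbers 4 and 5, and bars are mean ± SD of 5 animals. Young values are shown for Klk1 alone. The 5 old controls lie below all others for Klk1 and below all restricted animals for Klk1b5, while the groups overlap for Klk1b26.

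The other probe sets of Klk1b26 were dim. On x63327_i_at the old controls averaged 1088 ± 957 and the restricted animals 2004 ± 1032 (SD, n = 5), with 1 of 5 and 3 of 5 above the floor. The log2 difference was 0.22, close to the floor, and no test is read from it, since without the young arrays this probe set would not have passed the filter. K01654_rc_at (letter A) ranged from -59 to 799 over the 15 animals, below the floor throughout.

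Of the member probe sets that passed the filter on arrays that can be read, 0 of 3 passed the threshold with the diet in limma, beside 2.61% of all tested probe sets, 0.907% as higher. The count was also 0 with the i probe sets of Klk1b5 and Klk1b26 taken in. At an unadjusted p under 0.05 there were 2 of 3, those of Klk1 and Klk1b5, beside 14.6% of all tested probe sets. The exact permutation test also gave 2 of 3, beside 12.3% of all. Their restricted and old groups did not overlap, as was so for 1.79% of all probe sets in the higher direction. With the number set as a term in the fit, the adjusted p was 0.0130 for Klk1 and 0.0117 for Klk1b5, so their calls depend on that choice. Klk1 also passed without young control 1 (0.0211), and Klk1b5 without restricted animal 2 (0.0477). Against young controls, 0 of the 1 readable member probe sets passed in limma, beside 5.71% of all (4.51% without the exchanged class, and 169 of 4433 when adjusted without it), and 0 at an unadjusted p under 0.05 or by the permutation test.

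Of the angiotensin genes, Ace alone had probe sets. Both are made from the same transcript record, and neither rose above the floor in any animal. On j04947_rc_at (letter A) the values were -4197 to -554 in young controls, -4127 to -1646 in old controls and -3635 to -2980 in restricted animals. On the letter B probe set they were -613 to -35 in young controls, -516 to 319 in old controls and -601 to -140 in restricted animals. Values under the floor have no order as levels. These probe sets give no measure of a change in Ace.

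Of the other kallikreins, those measured read lower in old than in young controls. Of 21 other kallikreins listed, 6 had probe sets and 2 were measured. Klk1b9, which encodes an epidermal growth factor-binding protein, had intensities on m17962_f_at (letter A) of 10361 to 14518 in young controls, 6329 to 8236 in old controls and 8802 to 11233 in restricted animals. No old control reached the level of any animal of the other groups. The second Klk1b9 probe set of the same record, m17962_i_at, lay below the floor on every array. Its means were -617 in young controls, -638 in old controls and -975 in restricted animals. The values that follow are thus of the f probe set alone, where RNA of a relative cannot be told apart. Klk1b9 fell by 0.82 ± 0.13 with age (limma adjusted p = 0.000514), and by number set the change was -0.88 and -0.72, the latter short of the threshold alone (adjusted p = 0.0731). With the diet the difference was 0.48 ± 0.13 (adjusted p = 0.0607, and 0.0483 without old control 4), and restricted animals were -0.34 from young controls (adjusted p = 0.167).

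Klk1b16, which encodes gamma-renin, was read on both array types from 1 sequence record. On its letter B probe set it averaged 3589 ± 325 in young controls, 2414 ± 263 in old controls and 3007 ± 666 in restricted animals, and it fell by 0.57 ± 0.15 with age (limma adjusted p = 0.0310). On J03877_f_at (letter A) the age difference was -0.44 ± 0.19 (adjusted p = 0.238). The age call on letter B was lost in 14 of 31 alternatives, among them leaving out any 1 of 8 animals, with adjusted p of 0.0157 to 0.128, and the order of young values in single letter B rows was not checked. With the diet the differences were 0.30 ± 0.15 and 0.18 ± 0.19, neither past the threshold (adjusted p = 0.380 and 0.71).

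**Figure D2:**
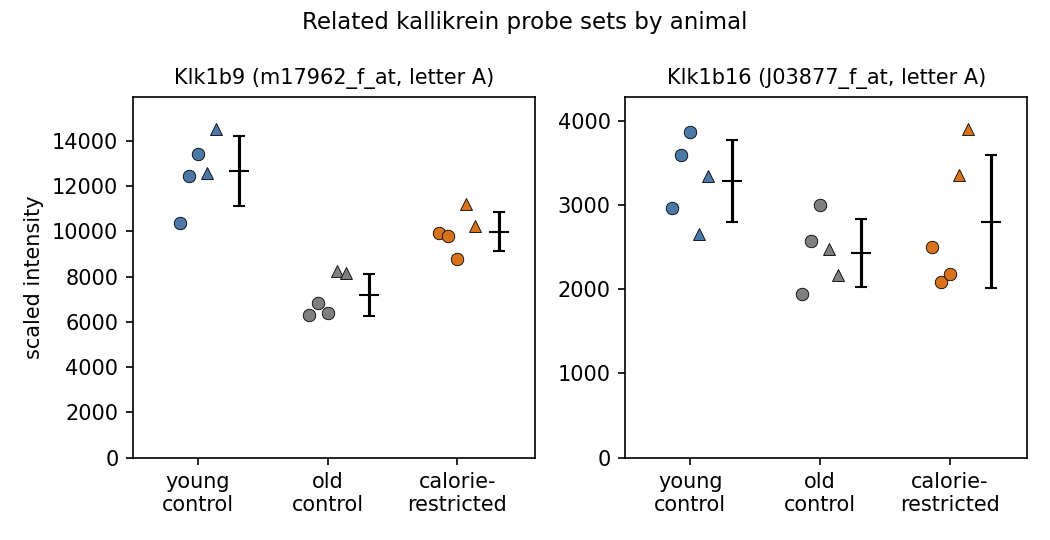
Scaled intensity by animal for Klk1b9 and Klk1b16 on letter A arrays. Symbols are as in the plot of member values and bars are mean ± SD of 5 animals. The old controls of Klk1b9 (6329 to 8236) lie below every other animal, and the groups of Klk1b16 overlap.

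**Figure D3:**
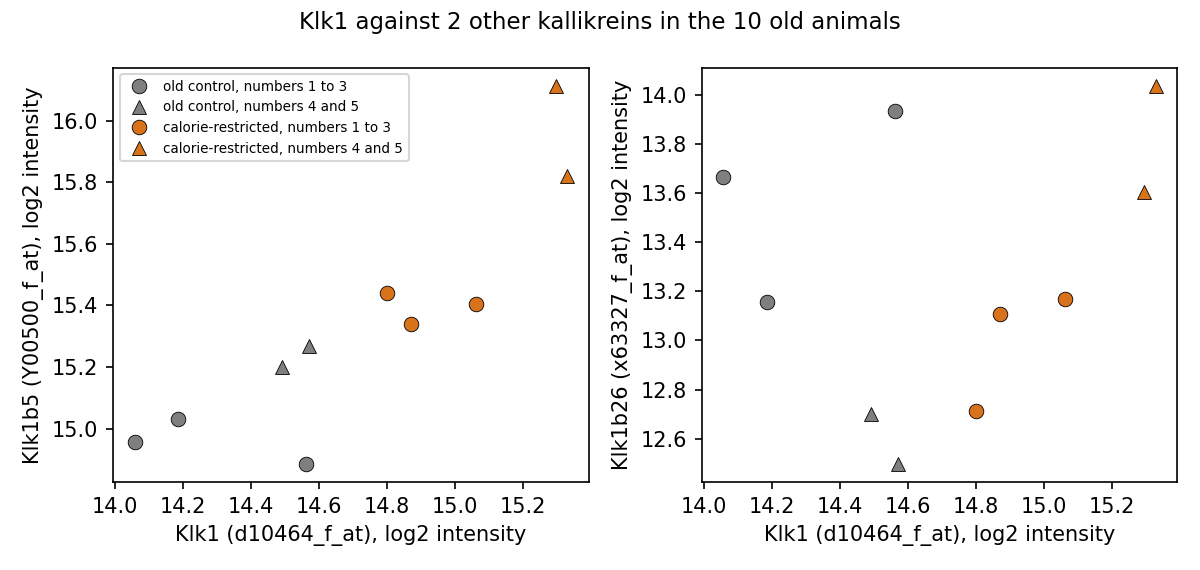
Log2 intensity of Klk1b5 (left) and Klk1b26 (right) against Klk1 in the 10 old animals, with circles for numbers 1 to 3 and triangles for numbers 4 and 5. Klk1b5 lies along a rising line with Klk1 (r = 0.878), and Klk1b26 does not (r = 0.239).

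Over the 10 old animals Pearson's r with Klk1 was 0.878 for Klk1b5 and 0.239 for Klk1b26, and within groups 0.668 and 0.243. These are descriptions over 10 points that fall into 2 diet groups, and RNA of relatives cannot be told apart on f probe sets. Over all 15 animals, the gene most like Klk1 among 3030 candidates was Klk1b9 (r = 0.928), then S100g, a calcium-binding protein of the distal nephron (0.868), and Selenbp1 (0.830). The genes most like Klk1b5 over the 10 old animals were Ahcy (0.95), Acot1 (0.924) and Axin1 (0.916). Acot1 and Axin1 had equal means in young and old controls, since both were held at the floor there. They passed the filter through the restricted arrays alone, so their r sets restricted values against tied floor values and is no support for a shared change. The genes most like Klk1b26 were Tmem50b (0.878), Hspa5 (0.855) and Snap47 (0.845).

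Among other renin and angiotensin genes, 20 were listed, 13 had a probe set and 3 were measured. None passed in either comparison by limma, and none had an unadjusted p under 0.05. Ctsd, a lysosomal protease able to cut angiotensinogen, differed by 0.13 ± 0.37 with age and 0.11 ± 0.37 with the diet. Enpep, which removes an amino acid from angiotensin II, differed by -0.04 ± 0.12 and -0.18 ± 0.12. Mas1, a receptor for angiotensin-(1-7), differed by -0.30 ± 0.14 and 0.09 ± 0.14.

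Of 17 listed kinin genes, 8 had a probe set and 2 were measured. Serping1 (Y10386_f_at), the inhibitor of plasma kallikrein and of complement C1, rose by 0.80 ± 0.14 with age (limma adjusted p = 0.00156), from 4903 ± 359 to 8622 ± 1541 (SD, n = 5). It was -0.49 ± 0.14 with the diet (adjusted p = 0.0856). Cpe, a carboxypeptidase, differed by -0.31 ± 0.23 and 0.05 ± 0.23. With the diet 0 of the 2 passed in limma, and 1 had an unadjusted p under 0.05.

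Aldosterone and sodium genes, 8 measured of 20 listed, gave 1 lower with age and 0 called with the diet in limma, where 2 had an unadjusted p under 0.05. Hsd11b1 (X83202_s_at), which regenerates active glucocorticoid, fell by 1.07 ± 0.26 with age (adjusted p = 0.020), on letter B, a call lost in 7 of 32 alternatives, with adjusted p up to 0.0625 without 1 animal (old control 2, or young control 2 or 3). The sodium pump subunit Atp1b1 differed by -0.16 ± 0.14 and 0.15 ± 0.14 in the respective comparisons. Prss8, a protease that activates the sodium channel, had 2 probe sets, with age differences of 0.02 and 0.12. Slc12a3, the thiazide-sensitive cotransporter, differed by -0.06 ± 0.22 and 0.24 ± 0.22. Sgk1 (aa217550_s_at), a kinase induced by aldosterone, is named after its values were seen. It averaged 1534 ± 453 (SD, n = 5) in young controls, 2193 ± 966 in old controls and 4429 ± 1665 in restricted animals. The difference with the diet was 1.05 ± 0.30, short of the threshold (limma adjusted p = 0.0819, and 0.0323 without old control 2), while against young controls Sgk1 rose by 1.46 ± 0.30 (adjusted p = 0.00592).

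Klk1 is made in the connecting tubule, so the markers of that stretch are given beside it. Of 24 listed genes of the connecting tubule, distal tubule and collecting duct, 10 were measured, and 3 were lower with age. Calb1, a calcium-binding protein, fell by 0.67 ± 0.17 (limma adjusted p = 0.0265), S100g by 0.66 ± 0.18 (adjusted p = 0.0496) and Egf by 0.39 ± 0.11 (adjusted p = 0.0395, and 0.0557 with the animal number as a replicate block). Egf, the growth factor precursor of the distal tubule, rose with the diet by 0.45 ± 0.11 (adjusted p = 0.0331), as the 1 member of the list that did. Calb1 and S100g differed by 0.39 ± 0.17 and 0.58 ± 0.18 with the diet, short of the threshold (adjusted p = 0.288 and 0.130). Slc12a1, the cotransporter of the thick ascending limb, differed by 0.16 ± 0.15 and 0.15 ± 0.15.

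These calls were near the threshold. The alternatives, 32 for each gene, lost the age call of Calb1 in 8, of S100g in 22 and of Egf in 20, and the diet call of Egf in 13, with no change of direction. Leaving out 1 animal ended them in 6, 11, 12 and 7 of 15 cases, with adjusted p up to 0.0680, 0.135, 0.0984 and 0.0882. The medians of that list were -0.06 with age and 0.08 with the diet, against -0.04 and 0.03 over all tested probe sets. The part of a changed share of connecting tubule cells in the Klk1 values was not tested. Of 10 measured proximal tubule genes, Gatm, an enzyme of creatine synthesis, fell by 0.87 ± 0.16 with age (limma adjusted p = 0.00262). Slc34a1 differed by -0.05 ± 0.12 and -0.02 ± 0.12, Kap, an androgen-regulated tubule protein, by 0.06 ± 0.28 and -0.47 ± 0.28 on letter A but by -0.30 ± 0.35 and 0.10 ± 0.35 on letter B, and Cyp4b1 by 0.17 ± 0.19 and -0.37 ± 0.19.

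**Figure D4:**
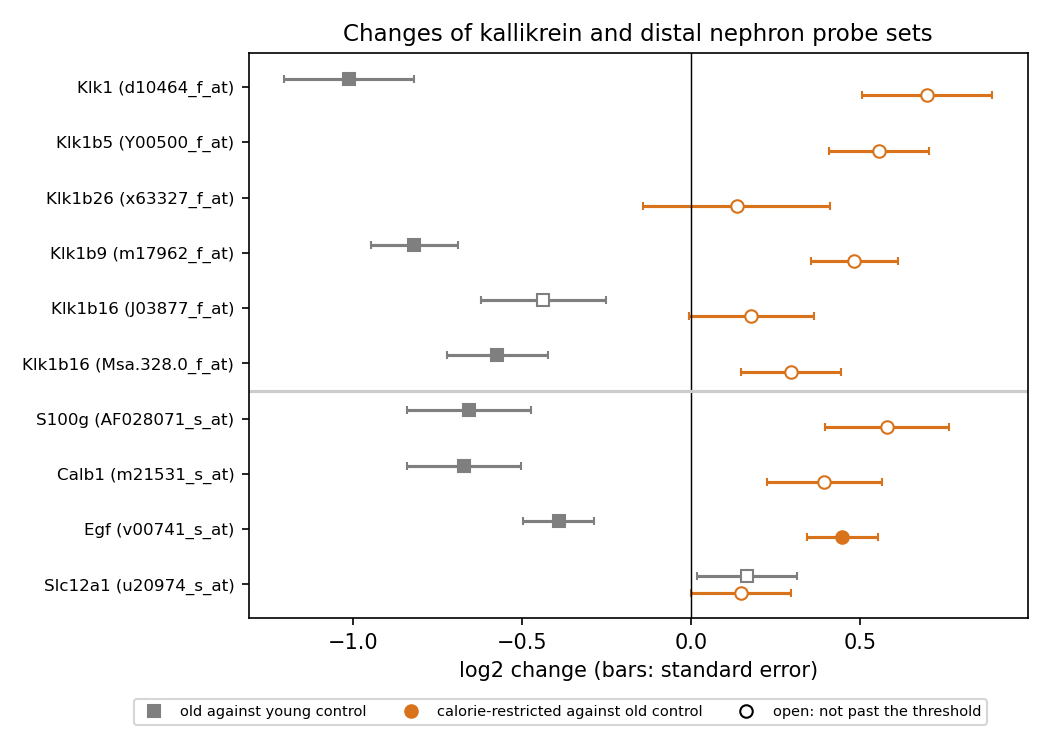
Log2 changes with SE bars for kallikrein (upper) and distal nephron (lower) probe sets, old against young controls as squares and calorie-restricted against old controls as circles, filled where adjusted p passed 0.05. No age value is drawn for Klk1b5 and Klk1b26. Of 10 measured distal nephron genes, only those named in the text are drawn, chosen as past the threshold and then by brightness. They do not stand for the whole list. Klk1, Klk1b9 and the Klk1b16 probe set of letter B lie left of 0 with age, and of the diet changes drawn, Egf alone is filled.

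Pancreas also makes tissue kallikrein. The summed intensity of its markers, to which 1 Cela1 probe set gave a large part, was lowest in old controls, with overlapping ranges. Of 12 listed pancreas genes, 8 were on the arrays with 10 probe sets, of which 6 lay below the floor on every array. These were the probe sets of Clps, Ins2, Amy2a1 and Amy2a5, and a second Cela1 probe set, M27347_rc_at. The summed intensity of the list was 9026 to 17533 in young controls, 6750 to 13694 in old controls and 11048 to 16371 in restricted animals. Cela1 differed by -0.44 ± 0.18 with age and 0.57 ± 0.18 with the diet (limma adjusted p = 0.234 and 0.137). The part of pancreas RNA in the Klk1 result was not tested. Skeletal muscle markers had sums of 11416 to 17455 in young controls, 7061 to 14485 in old controls and 11388 to 16913 in restricted animals. Adrenal markers summed to 11860 to 14410, 9148 to 13772 and 10082 to 13234 in the same order of groups, with Star below the floor on every array. Among them Fdx1 (l29123_at), a ferredoxin that passes electrons to mitochondrial P450 enzymes and is also made in kidney, fell by 0.89 ± 0.18 with age (limma adjusted p = 0.00414). It differed by 0.28 ± 0.18 with the diet. Nr5a1 differed by 0.33 ± 0.18 with age on letter A (limma adjusted p = 0.377), and its letter B probe set lay below the floor on every array. Hsd3b1 had means of 830 in young and 934 in old controls, under the floor of 1103. Its age difference of 0.04 ± 0.10 is thus no measure of a change. Leukocyte markers summed to 11672 to 14636, 14344 to 18761 and 11604 to 15964, highest in old controls with overlapping ranges. Ptprc, the brightest of the list, was not called, with 0.22 ± 0.16 with age (limma adjusted p = 0.550) and -0.0007 ± 0.16 with the diet. The probe sets of Cd53 lay below the floor on every array. Of the other leukocyte markers, Laptm5, a lysosomal membrane protein, rose by 0.87 ± 0.20 with age (limma adjusted p = 0.0148). Cd37, a B cell tetraspanin, fell by 0.90 ± 0.18 with the diet (adjusted p = 0.0103). Red blood cell markers summed to 22094 to 47757, 37688 to 72884 and 23630 to 58719, and fat markers to 8096 to 12859, 7962 to 18202 and 5821 to 17801. Liver markers summed to 3026 to 25568, 2228 to 4409 and 2229 to 4537. The part of these tissues in the Klk1 values was not tested. Salivary gland markers, for the organ richest in Klk1b genes, summed to 3118 to 5936, 3237 to 6580 and 2766 to 7159. Of 4 listed salivary genes, 2 were on the arrays, and Prol1 lay below the floor on every array. The salivary sum thus rests mostly on the Amy1 probe set.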

How the data were processed

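Kidney RNA of 3 groups of 5 animals was measured on 2 array types. The authors deposited intensity values as whole numbers per probe set, in part negative. The software and background step were not given in the sources used here. Scaling follows from the trimmed means, 1463 to 1504. Each array was scaled to the common trimmed mean of its table (2% trimmed at each end, factors 0.997 to 1.01). Values under a floor of 1103 (A) and 1815 (B), the root mean square of each table's negative values, were raised to it, and log2 was taken, so changes near it are understated. Probe sets above the floor on at least 5 arrays were tested, 2609 and 1909, without 132 control or blank entries. All 15 animals were fitted with limma 3.58.1 in R 4.3.3, and p-values were adjusted (Benjamini-Hochberg) over the 4518 probe sets together, with a threshold of 0.05. The test was checked on simulated data. Single probe sets were also tested by exact two-sided permutation.

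Groups and numbers came from the sample titles. Symbols, 7561 in all, came from array annotation, 7544 of them updated through RefSeq. Members and lists were chosen with earlier results of these data known. Named were all member probe sets, up to 4 genes of each list (those past the threshold with age or diet, then the brightest; Sgk1, Fdx1, Laptm5 and Cd37 were added after their values were seen) and the 3 genes most correlated with each bright member probe set. Deviations of same-numbered animals correlated over 0.1 in 5 of 5 pairs of young and old controls (0.22 to 0.50), so the numbers were taken to pair those groups. In none of these pairs did an animal correlate best with its own number, so the pairing is an assumption. Between young controls and restricted animals they did so in 4 of 5 (0.07 to 0.41). Between old controls and restricted animals they did so in 3 of 5 (-0.01 to 0.40), so the numbers were not taken to pair these. The 3 groups share 1 main fit, which carries no block, and the permutation tests leave the numbers out too. The pairing of young and old controls thus enters only the alternative with a replicate block. Alternatives changed the normalization (quantile, none), the floor (doubled, halved, asinh in its place), the filter, the moderation, the samples and tables in the fit, a block, the number set, and leaving out each animal. Windows were aligned with Biopython 1.88, and figures drawn with matplotlib 3.10.9.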

Additional observations from a re-analysis of the deposited data

Results flagged for a closer look

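Among 16 groups of 5 animals looked at for the kallikrein probe sets, 1 held an animal far from its fellows: in old controls, number 1 read 2874 for Klk1b16 on the letter B probe set, with the nearest other at 2386. That gap is 0.783 of the group's range, over the critical value of 0.71, which chance passes in about 1 in 20 groups.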

How the results depend on the processing

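The age call of Klk1 held in every alternative except numbers 1 to 3 alone, where 0 member probe sets passed in place of 1, and leaving out each animal in turn kept 1. With the diet 0 members passed, 1 with values above the floor on at least 1 array, each table on its own or the floor doubled, and 2 with quantile normalization, the number set as a term or the replicate block. Leaving out an animal gave 0 to 1: without young control 1 Klk1 had adjusted p = 0.0211, and without restricted animal 2 Klk1b5 had adjusted p = 0.0477. Over the alternatives the adjusted p in limma was 0.0130 to 0.202 for Klk1 and 0.0117 to 0.171 for Klk1b5. Under the replicate block they were 0.0274 and 0.0372, which makes both calls. In 2 of 15 pairs an animal correlated best with its own number. The block changed no other member call, and among other named genes it gave Klk1b9 a diet call (adjusted p = 0.0402) and ended the age call of Egf (0.0557). The age call of Klk1 held under it.

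Over all tested probe sets the 118 calls with the diet became 55 (above the floor on at least 8 arrays), 68 (no filter), 224 (number set as a term), 253 (numbers 1 to 3), 9 (numbers 4 and 5) and 72 (the 2 groups alone). Leaving out an animal gave 73 to 133, with 73 and 78 without restricted animals 1 and 5. The 258 calls against young controls became 439 with the number set as a term, 104 in numbers 4 and 5, and 169 without the exchanged letter B class. The 233 age calls became 146 in numbers 4 and 5 and 150 without that class. The Klk1b26 diet change (x63327_f_at) turned to -0.59 in numbers 1 to 3. Leaving out each animal gave it a range of -0.043 to 0.32, below 0 without restricted animal 5 or old control 5. For Klk1b16 the diet change was -0.13 on letter A in numbers 1 to 3. Its difference from young controls was 0.28 (letter A) and 0.047 (letter B) in numbers 4 and 5. The number set alternatives hold fewer animals, and otherwise the cause was not tested.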
